A study of Mus musculus with 12 samples.

Results

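The comparison is between cultures labelled as knockout for Tgfbr2 and cultures with the receptor gene intact, both given TGFB1. Tgfbr2 encodes the type 2 receptor of the TGF-beta pathway. Genes entered when their deposited FPKM (a read count divided by transcript length and by the size of the library) was at least 1 in at least 3 of the 6 libraries compared, which left 12088 of the 25203 genes in the table. The study grew primary mouse stromal fibroblasts named for a low signal of a Pdgfra H2B-GFP reporter, and read polyadenylated RNA in 12 libraries, 3 for each of 4 groups. Libraries labelled TGFB1 came from intact cultures given the ligand (intact libraries below), and libraries labelled Tgfbr2KO_TGFB1 came from knockout cultures given the ligand (knockout libraries below). The other 6 libraries, Vehicle and Tgfbr2KO_Vehicle, are the same genotypes given vehicle. In the series' own wording the knockout cells serve to measure TGFB1 activity outside the canonical route, so this comparison shows which transcripts differ when the ligand is present and the receptor gene is or is not intact. The labels give neither the dose nor the duration of TGFB1. They do not state how Tgfbr2 was deleted, which part was deleted, a Cre driver, or the age of the animals. Nor do they say whether the 3 libraries of a group came from separate animals or cultures. The p-values here thus measure only the spread between libraries, whose source is not stated. A few genes, given at the end, followed the replicate number in all 4 groups.

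TGFB1 binds a pair of TGFBR2 receptors, which recruit and phosphorylate the type 1 receptor TGFBR1. The activated type 1 receptor phosphorylates SMAD2 and SMAD3, which join SMAD4 and move to the nucleus to switch target genes on or off. In fibroblasts the pathway is known for raising matrix and contractile genes, and the intestinal mesenchyme is also known as a source of WNT, R-spondin, BMP and BMP antagonist signals to the epithelium.

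Every value is a difference of the knockout minus the intact group on the log2(FPKM + 1) scale (log2 difference), with its standard error and a Benjamini-Hochberg adjusted p from limma over all 12088 genes, and a gene is called when that p is below 0.05. A fold is a ratio of mean FPKM. Values of 3 libraries are given in the order of replicates 1, 2 and 3. Of the genes tested, 4256 were called (35.2%), 1920 higher (15.9%) and 2336 lower (19.3%) in the knockout libraries. Large differences were mostly rises: 532 called genes were at least 2-fold higher and 337 at least 2-fold lower on the log2(FPKM + 1) scale. At 8-fold the counts were 58 higher and 12 lower. The median log2 difference of all genes was -0.02. The 3 libraries of one genotype lay wholly above or below those of the other for 46.1% of genes (21% above, 25.2% below). Genes named below for the largest rises and falls had to meet this, so their lack of overlap is no separate result. The shares of all genes called higher and lower are the background for the counts of gene lists below.

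**Figure D1:**
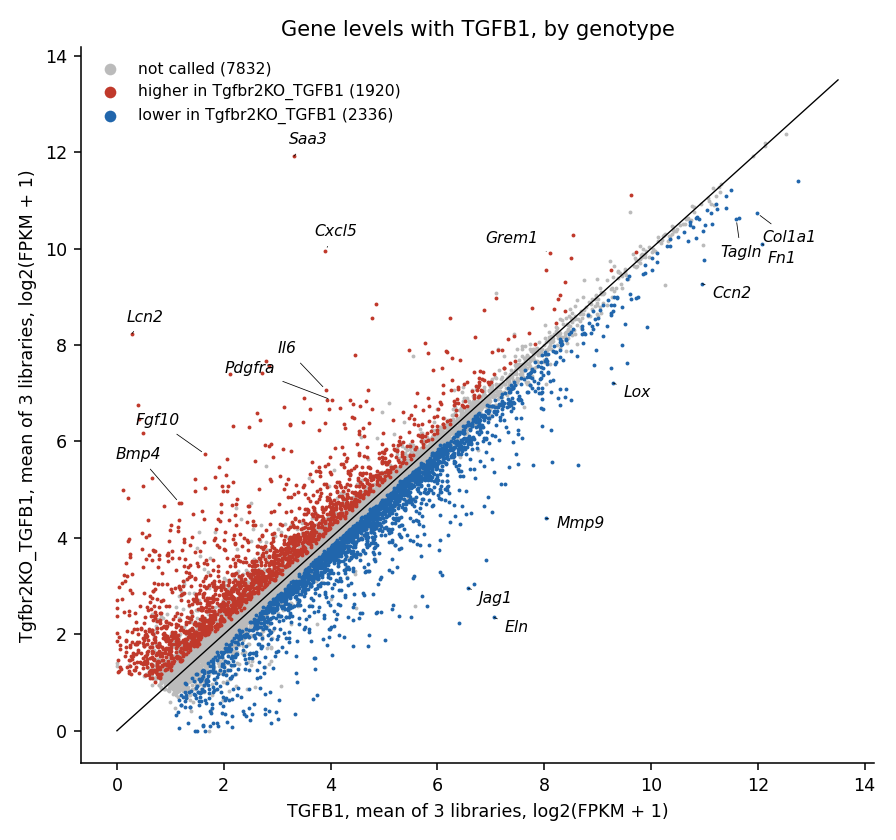
Each point is 1 of 12088 genes, with the mean of the 3 TGFB1 libraries on the x axis and of the 3 Tgfbr2KO_TGFB1 libraries on the y axis, both as log2(FPKM + 1). Red points (1920) were called higher and blue points (2336) lower in Tgfbr2KO_TGFB1; Saa3 and Lcn2 lie farthest above the diagonal, and Eln and Jag1 are among those farthest below it.

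The first principal component of the 6 libraries held 66.0% of the variance and separated the genotypes, and the second held 17.6%. Knockout replicate 3 stood apart: its correlations with knockout replicates 1 and 2 across genes were 0.958 and 0.974, against 0.986 between those, and against 0.982 to 0.985 among the intact libraries. Without that library 4267 genes were called. Among called genes described here, the log2 differences of Saa3, Cd34, C4b, Vegfd and Ptn were then 7.75, 3.07, 1.95, 2.86 and 2.83, that of Odaph -3.6, and those of S100a8 and Sema3e 6.94 and 2.59, each a move of over 1.5-fold. FPKM sums ran from 498669 to 569510 over the 12 libraries, and read depth is not known. The fibroblast label could be checked against 12 markers: their summed FPKM was 8603 to 9561 in the intact and 4214 to 8233 in the knockout libraries, and 10 and 11 of the 12 reached 1 FPKM in all 3 libraries of the group. Summed markers of smooth muscle and pericytes (12 genes) were 3053 to 3426 against 1626 to 2529 FPKM, those of leukocytes (18 genes) 18.6 to 449 against 234 to 442, and those of endothelium (10 genes) 4.97 to 22.7 against 12.5 to 26.8. The leukocyte sums hold S100a8, at 188, 125 and 10.3 FPKM in the knockout and at most 0.967 FPKM in the intact libraries. The macrophage gene Lyz2 was at 214, 8.28 and 250 FPKM in the intact and 87, 226 and 156 FPKM in the knockout libraries. Intact replicate 2 had the lowest leukocyte sum. Epithelial markers (12 genes) summed to 3.16 to 6.14 against 6.98 to 29.2 FPKM, and the highest sum was in knockout replicate 1, where the keratin gene Krt18 was at 9.47 FPKM. Mesothelial markers (6 genes) reached at most 1.65 FPKM in sum in any of the 6 libraries.

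Tgfbr2 itself was at 56.5, 70.6 and 74.6 FPKM in the intact and 31.6, 38 and 62.4 FPKM in the knockout libraries. Knockout replicate 3 lay within the intact range, and the difference was not called (log2 -0.65, SE 0.30, adjusted p = 0.116), while it was called without that library (log2 -0.93, adjusted p = 0.0288). It was also called with a term for the replicate number in the fit (limma adjusted p = 0.0126). A value for the whole gene cannot check a deletion whose extent is not stated. The type 1 receptor gene Tgfbr1 was at 13, 12.6 and 12.5 FPKM in TGFB1 and 13.6, 15.4 and 19.9 FPKM in Tgfbr2KO_TGFB1. Its groups did not overlap, but it was not called (log2 0.32, SE 0.13, adjusted p = 0.0715; log2 0.44 and adjusted p = 0.0219 without knockout replicate 1). With the term for the replicate number Tgfbr1 was called (limma adjusted p = 0.0354). Tgfbr3, the gene of betaglycan, a co-receptor that presents TGF-beta ligands, was at 1.71, 4.32 and 4.51 FPKM in TGFB1 and 24.2, 30.5 and 50.1 FPKM in Tgfbr2KO_TGFB1. The lowest knockout library was several times the highest intact one, a 9.94-fold higher mean (log2 3.0, SE 0.34, adjusted p = 9.12e-05).

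Of 24 tested pathway components, 8 were called higher and 8 lower (median log2 difference 0.02, against -0.02 for all genes). The ligand genes were among those that fell. Tgfb1 was at 53.7, 49.6 and 56.7 FPKM in TGFB1 and 31.5, 31.7 and 30.6 FPKM in Tgfbr2KO_TGFB1, with no overlap (log2 -0.75, SE 0.08, adjusted p = 7.76e-05). Tgfb2 was at 22, 20.6 and 19.4 FPKM in TGFB1 and 8.37, 6.28 and 3.66 FPKM in Tgfbr2KO_TGFB1, 3.38-fold lower in the knockout libraries (log2 -1.66, SE 0.26, adjusted p = 0.000798). Tgfb3 also fell (log2 -0.88). Ltbp4, whose protein holds latent TGF-beta in the matrix, fell 3.87-fold from 32.7, 41.4 and 36.5 to 6.91, 9.33 and 12.3 FPKM (log2 -1.87). Inhbb, which encodes a subunit of activin and inhibin B, rose from 1.17, 0.838 and 2.89 to 5.02, 4.89 and 5.64 FPKM (log2 1.31, adjusted p = 0.00643). The SMAD genes moved little: Smad3 had a log2 difference of 0.50 (called), Smad2 of 0.05 (not called) and Smad4 of -0.20 (called). The inhibitory Smad7 was at 37.2, 40.4 and 32.5 FPKM in TGFB1 and 31.6, 26.2 and 15 FPKM in Tgfbr2KO_TGFB1. Its groups did not overlap, knockout replicate 3 was the lowest, and the difference was not called (log2 -0.63, SE 0.30, adjusted p = 0.126; -0.34 without that library). With a term for the replicate number in the fit Smad7 was called (limma adjusted p = 0.0078).

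Early targets of TGFB-SMAD signalling are genes known to respond directly to the activated SMADs. Of 28 tested, 16 were called lower and 5 higher in the knockout libraries, the latter near the 15.9% called higher of all genes, with a median log2 difference of -0.63. The same 2 counts were found without knockout replicate 3. The called members with the deepest falls were Bhlhe40, Cdkn2b, Pmepa1, Inhba, Spsb1 and Nox4. Promoters of Cdkn2b, Inhba, Spsb1 and Nox4 are shown because SMAD3 and SMAD4 are known to bind the letters CAGAC, and so that the sequence next to the start of each gene can be read beside its fall. They run from 250 bases before to 50 bases after the annotated start (RefSeq, GRCm38.p6), 5′ to 3′ on the gene's strand, with CAGAC or its reverse complement GTCTG in capitals.
Cdkn2b, chr4:89310983-89311282, minus strand: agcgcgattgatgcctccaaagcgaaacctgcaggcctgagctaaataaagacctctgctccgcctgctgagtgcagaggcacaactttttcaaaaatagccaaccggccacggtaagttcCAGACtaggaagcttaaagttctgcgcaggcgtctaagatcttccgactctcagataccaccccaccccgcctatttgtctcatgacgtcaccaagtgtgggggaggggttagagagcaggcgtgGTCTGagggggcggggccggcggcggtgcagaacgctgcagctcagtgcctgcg
Inhba, chr13:16011601-16011900, plus strand: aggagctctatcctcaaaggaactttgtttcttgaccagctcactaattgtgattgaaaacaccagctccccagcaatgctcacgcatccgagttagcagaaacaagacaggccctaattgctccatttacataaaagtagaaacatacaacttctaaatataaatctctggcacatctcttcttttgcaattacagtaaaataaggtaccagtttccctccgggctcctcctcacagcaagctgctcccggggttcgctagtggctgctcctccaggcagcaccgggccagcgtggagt
Spsb1, chr4:149954957-149955256, minus strand: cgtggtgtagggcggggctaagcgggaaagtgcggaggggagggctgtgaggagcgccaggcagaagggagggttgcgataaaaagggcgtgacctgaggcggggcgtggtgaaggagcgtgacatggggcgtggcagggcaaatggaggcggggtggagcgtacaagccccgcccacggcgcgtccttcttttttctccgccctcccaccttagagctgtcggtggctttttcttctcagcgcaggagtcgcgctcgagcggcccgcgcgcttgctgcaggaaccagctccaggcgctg
Nox4, chr7:87246399-87246698, plus strand: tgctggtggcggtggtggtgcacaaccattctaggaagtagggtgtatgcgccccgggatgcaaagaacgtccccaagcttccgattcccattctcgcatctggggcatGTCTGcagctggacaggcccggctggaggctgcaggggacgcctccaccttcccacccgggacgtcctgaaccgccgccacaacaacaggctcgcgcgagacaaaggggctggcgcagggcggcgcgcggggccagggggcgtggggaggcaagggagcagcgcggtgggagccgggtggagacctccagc
The Cdkn2b window holds the motif at position -129 on the given strand and at -4 on the opposite strand, counted from the start of the gene, and the Nox4 window at -141 on the opposite strand. The Inhba and Spsb1 windows do not hold these letters. Over all 27025 promoters of this length 49.7% hold CAGAC on either strand, and 47.25% of the 9506 matched to genes tested. The share was 47.0% for the 1525 promoters matched to genes called higher, 49.6% for the 1840 matched to genes called lower, and 6 of 11 for the early targets called lower that have an entry. The palindrome GTCTAGAC was in 0.211% of all promoters and the AP-1 letters TGACTCA in 5.17% (0.221% and 3.55% for genes tested), and neither was in any of those 11.

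Cdkn2b, a cell cycle inhibitor gene induced by TGF-beta, was at 111, 85.6 and 98.6 FPKM in TGFB1 and 27.9, 19.6 and 18.4 FPKM in Tgfbr2KO_TGFB1. The lowest intact library was far above the highest knockout one, a 4.48-fold fall (log2 -2.13, SE 0.21, adjusted p = 3.64e-05). Inhba, the activin A subunit gene, was at 198, 176 and 172 FPKM in TGFB1 and 54.5, 59.97 and 22.2 FPKM in Tgfbr2KO_TGFB1, with knockout replicate 3 the lowest (log2 -2.09, SE 0.32, adjusted p = 0.000634). Bhlhe40, a transcription factor gene, was at 80.2, 84.8 and 89.7 FPKM in TGFB1 and 14.6, 18.7 and 22 FPKM in Tgfbr2KO_TGFB1 (log2 -2.16, SE 0.20, adjusted p = 2.29e-05). Pmepa1, whose product dampens TGF-beta signalling, was at 141, 113 and 113 FPKM in TGFB1 and 26.2, 32.1 and 24.8 FPKM in Tgfbr2KO_TGFB1 (log2 -2.1, SE 0.11, adjusted p = 8.67e-07). In each of these genes all intact libraries lay above all knockout libraries, by 4.00-fold to 4.60-fold in the mean. Ccn2, a matricellular protein gene, was at 2002, 1963 and 1982 FPKM in TGFB1 and 858, 695 and 300.3 FPKM in Tgfbr2KO_TGFB1. The intact libraries were within 1.02-fold of each other, whereas the knockout libraries spanned 2.86-fold with replicate 3 the lowest (log2 -1.81, SE 0.34, adjusted p = 0.00238). Further members that fell, named after their values were seen, were Spsb1 (log2 -1.91), Nox4, a gene of a hydrogen peroxide producing oxidase (-1.86), Ldlrad4 (-1.82), and Skil, a SMAD co-repressor gene (-1.22). Members called higher were Lmcd1 (1.53), Id3 (1.47), Bmp6 (1.23), Zfp36l1 (1.16) and Bambi (0.55). Id3 is also a target of BMP signalling.

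Matrix genes moved unequally. Of 27 fibrillar collagen and interstitial matrix genes, 14 fell and 6 rose (median log2 difference -0.77), and of 23 elastic fibre and cross-linking genes, 12 fell and 2 rose (median -0.53). Summed smooth muscle and pericyte markers and summed fibroblast markers were also lower in the knockout libraries, as given above. The fibroblast sum itself holds abundant collagen genes such as Col1a1. By gene, 2 of 11 fibroblast markers tested were called higher, 2 lower and 7 not called (median log2 difference 0.27). Of 10 smooth muscle and pericyte markers tested, 2 were called higher, 5 lower and 3 not called (median -0.48). The part of cell types in these falls was not tested. In bulk RNA, fewer cells of a type and less RNA per cell cannot be told apart. Eln, the gene of elastin, was at 108, 141 and 148 FPKM in TGFB1 and 0.693, 4.69 and 6.93 FPKM in Tgfbr2KO_TGFB1. Every intact library exceeded every knockout library by a wide margin, the deepest fall of any gene named (log2 -4.96, SE 0.63, adjusted p = 0.000196; log2 -4.3 without knockout replicate 1). Lox, the gene of an enzyme that cross-links collagen and elastin, was at 659, 622 and 591 FPKM in TGFB1 and 105, 155 and 182 FPKM in Tgfbr2KO_TGFB1, a 4.23-fold fall (log2 -2.11, SE 0.30, adjusted p = 0.000382). Efemp1 went the other way, at 0.0603, 0.162 and 0.212 FPKM in TGFB1 and 5.22, 6.26 and 13.1 FPKM in Tgfbr2KO_TGFB1 (log2 2.91), as did Fbln1 at 12.7, 20.3 and 14.8 FPKM in TGFB1 and 31.7, 43.7 and 96.8 FPKM in Tgfbr2KO_TGFB1 (log2 1.65), both genes of fibulin family proteins. The cross-linking genes Loxl2 and Loxl3 and the microfibril gene Fbn1 fell by 1.55, 1.49 and 1.51 on the log2 scale.

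Fn1, fibronectin, was at 4124, 4407 and 4496 FPKM in TGFB1 and 855, 1002 and 1419 FPKM in Tgfbr2KO_TGFB1, a 3.98-fold fall (log2 -2.02, SE 0.19, adjusted p = 2.29e-05). It was among the most abundant transcripts of the intact libraries, and every knockout library was far below them. Col5a3 was at 114, 106 and 135 FPKM in TGFB1 and 6.52, 11.5 and 14.1 FPKM in Tgfbr2KO_TGFB1 (log2 -3.4, SE 0.29, adjusted p = 1.43e-05) and Col11a1 at 61.9, 58.8 and 79.2 FPKM in TGFB1 and 2.69, 7.57 and 14.9 FPKM in Tgfbr2KO_TGFB1 (log2 -3.07, SE 0.63, adjusted p = 0.00358), chains of minor fibrillar collagens. Col1a1, the main chain of type I collagen, was at 3737, 4110.4 and 4291 FPKM in TGFB1 and 1166, 1469 and 2478 FPKM in Tgfbr2KO_TGFB1. All knockout libraries were below all intact ones, replicate 3 was the highest of them, and the fall was called (log2 -1.32, SE 0.30, adjusted p = 0.00623). Col3a1, of type III collagen, was at 349.9, 429.99 and 501 FPKM in TGFB1 and 242, 419 and 1304 FPKM in Tgfbr2KO_TGFB1: knockout replicate 3 was above and replicate 1 below the whole intact range, and the difference was not called (log2 0.27, SE 0.62, adjusted p = 0.775; log2 -0.41 without knockout replicate 3). Other fibroblast markers also spread among the knockout libraries, with Dcn, the gene of decorin, at 435, 349 and 391 FPKM in TGFB1 and 283, 393 and 798 FPKM in Tgfbr2KO_TGFB1. Prelp, a small leucine-rich proteoglycan gene, rose from near 0 (0.112, 0.0684 and 0.0644 FPKM) to 36.2, 22.7 and 33.8 FPKM (log2 4.86, SE 0.23, adjusted p = 4.85e-07), and Col14a1, of a fibril-associated collagen, rose from 3.72, 1.9 and 2.86 to 14.3, 17.4 and 26.4 FPKM (log2 2.4). Of 18 basement membrane genes, 7 fell and 4 rose. Col7a1, the anchoring fibril collagen gene, fell 8.65-fold from 50.2, 59.2 and 45.5 to 4.94, 7.05 and 5.93 FPKM (log2 -2.92, SE 0.14, adjusted p = 5.36e-07), whereas Nid2, a nidogen gene, rose 8.96-fold from 11.1, 12.3 and 10.3 to 119.7, 104 and 77.6 FPKM (log2 3.04, SE 0.22, adjusted p = 5.41e-06). Lama4, a laminin chain gene, rose from 10.9, 13.5 and 16.6 to 26.1, 29.6 and 45.4 FPKM (log2 1.22). Of 8 hyaluronan genes 2 fell and 1 rose, beside 19.3% lower and 15.9% higher of all genes. The synthase gene Has2 fell 2.46-fold (log2 -1.32) and Cemip2 fell by less (log2 -0.36). Ugdh, whose enzyme makes a hyaluronan precursor, rose 2.00-fold (log2 0.97). In this list 2 rose without intact replicate 2 or without knockout replicate 3.

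**Figure D2:**
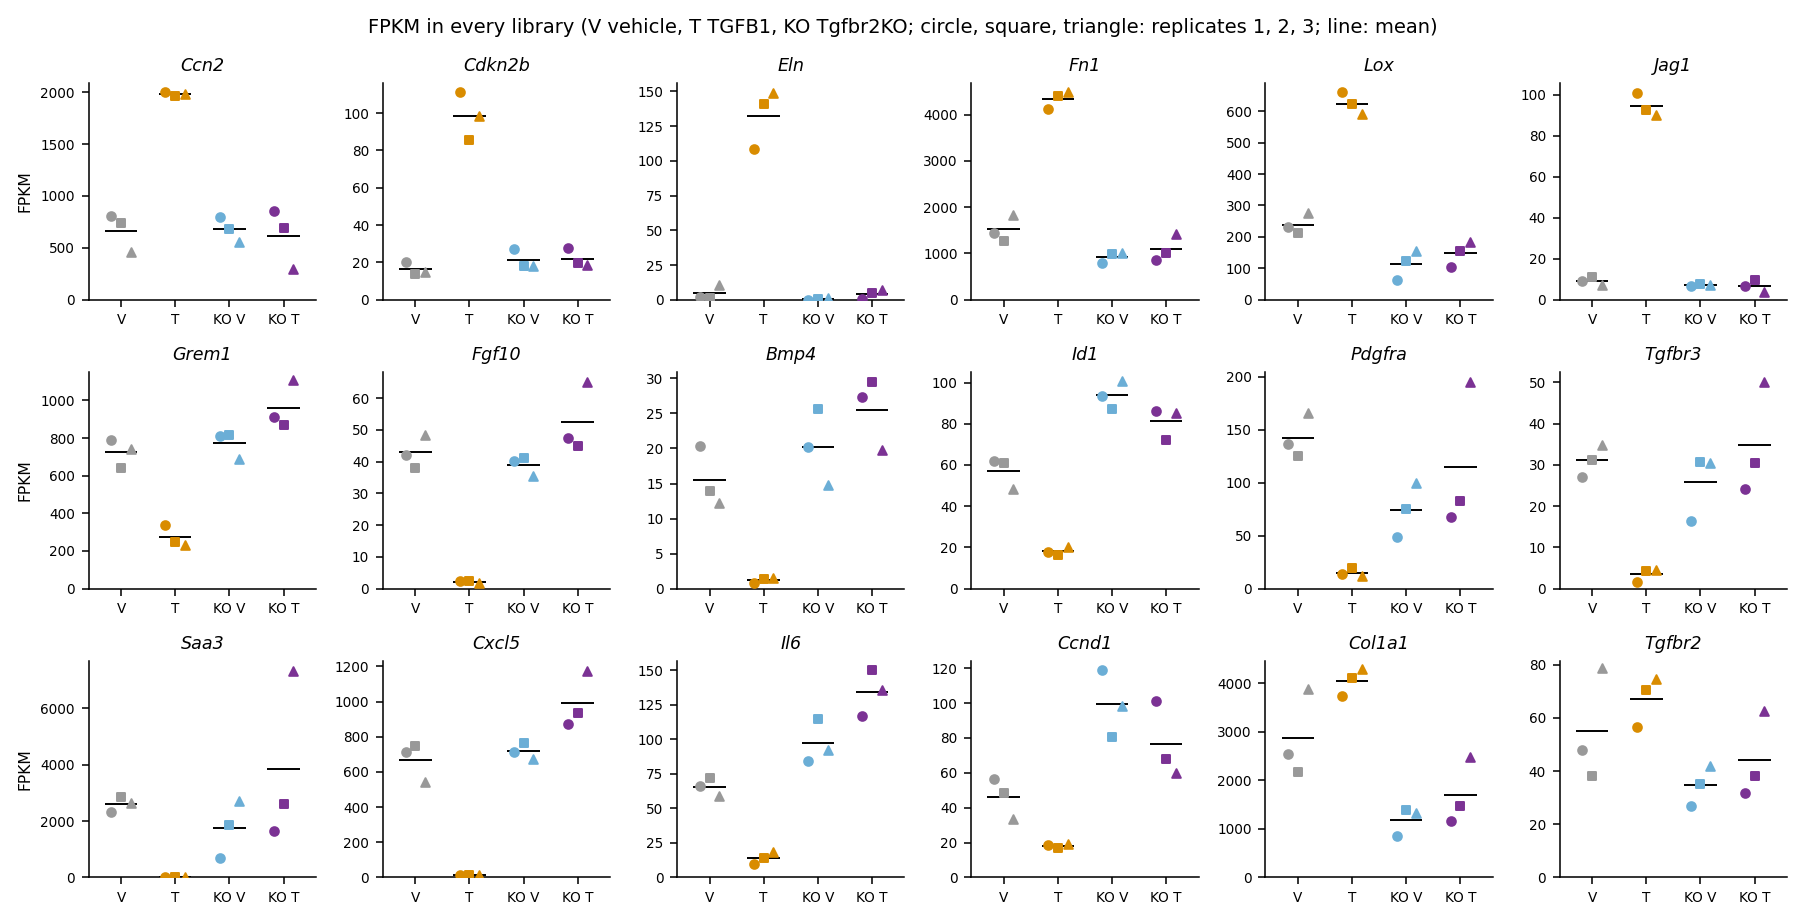
FPKM (y axes, each from 0) of 18 genes in all 12 libraries, grouped on the x axis as Vehicle (V), TGFB1 (T), Tgfbr2KO_Vehicle (KO V) and Tgfbr2KO_TGFB1 (KO T), with circles, squares and triangles for replicates 1, 2 and 3 and a line at the mean. In the T and KO T columns the points do not overlap for any gene shown except Tgfbr2. Ccn2, Cdkn2b, Eln, Fn1, Lox and Jag1 are higher in T than in KO T. Grem1, Fgf10, Bmp4, Id1, Pdgfra, Tgfbr3, Saa3, Cxcl5 and Il6 are lower in T than in KO T, and their V and KO V points also lie above T.

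Contractile and actin genes fell in 16 of 25 tested cases and rose in none, with a median log2 difference of -0.39. Their steps were small beside those of the matrix genes. Tpm1, a tropomyosin gene, was at 3085, 3301 and 3224 FPKM in TGFB1 and 1724, 1759 and 1269 FPKM in Tgfbr2KO_TGFB1, a 2.02-fold fall (log2 -1.03, SE 0.11, adjusted p = 7.24e-05). Tagln, the gene of transgelin, was at 3342, 2863 and 3063 FPKM in TGFB1 and 1846, 1690.5 and 1179 FPKM in Tgfbr2KO_TGFB1 (log2 -1.0, SE 0.15, adjusted p = 0.000559). Groups did not overlap in either gene, and knockout replicate 3 was the lowest library in both. Palld and Pdlim7, genes of actin-associated scaffolds, fell 1.79-fold and 1.81-fold. Acta2, smooth muscle actin and the usual myofibroblast marker, was at 2684, 2294 and 2265 FPKM in TGFB1 and 2148, 1861 and 1396 FPKM in Tgfbr2KO_TGFB1. Its fall was called (log2 -0.44, SE 0.14, adjusted p = 0.0342), but the call was lost with only the 6 libraries of the comparison in the fit (adjusted p = 0.103), with no filter on low values (0.0851 as adjusted p), without intact replicate 1, 2 or 3 (adjusted p = 0.121, 0.057 and 0.0543) and without knockout replicate 2 or 3 (0.0587 and 0.0776 as adjusted p, with log2 -0.27 in the latter case). Of 17 integrin and focal adhesion genes, 11 fell and 3 rose (median -0.31), the latter near the 15.9% called higher of all genes. Itgb3, an integrin subunit that binds RGD ligands and can take part in activating latent TGF-beta, was at 63.6, 68.5 and 64.2 FPKM in TGFB1 and 13.9, 16.2 and 13.4 FPKM in Tgfbr2KO_TGFB1 (log2 -2.1, SE 0.14, adjusted p = 3.37e-06). Itga5, the fibronectin receptor subunit gene, was at 753, 681 and 679.9 FPKM in TGFB1 and 317, 274 and 178 FPKM in Tgfbr2KO_TGFB1 (log2 -1.49, SE 0.19, adjusted p = 0.000194). Itga8, which pairs with integrin beta 1, rose from 1.15, 0.898 and 1.00 to 3.28, 2.55 and 2.85 FPKM (log2 0.95). Targets of the YAP and TEAD regulators fell in 8 of 21 cases and rose in 1 (2 without knockout replicate 3). Amotl1 and Ajuba, genes of regulators of that pathway, had narrow groups, at 41.4, 41.4 and 39.6 FPKM in TGFB1 and 22.3, 24.6 and 23.2 FPKM in Tgfbr2KO_TGFB1 for Amotl1, a log2 difference of -0.78 with an SE of 0.05, and -0.86 for Ajuba. Csrp2, a LIM domain protein gene of smooth muscle and fibroblasts, fell 8.78-fold from 424, 354 and 402 to 38.5, 56.1 and 39.8 FPKM (log2 -3.12, SE 0.16, adjusted p = 7.86e-07).

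Genes for niche signals and WNT agonists were mostly higher in the knockout libraries. Of 16 tested, 10 rose and 4 fell, with a median log2 difference of 2.30. Fgf10, a growth factor gene that acts on epithelium, was at 2.26, 2.37 and 1.76 FPKM in TGFB1 and 47.6, 44.8 and 65.1 FPKM in Tgfbr2KO_TGFB1, a 24.6-fold rise (log2 4.08, SE 0.14, adjusted p = 8.26e-08). Grem1, a secreted BMP antagonist of the crypt base, was at 339, 250.2 and 234 FPKM in TGFB1 and 910.3, 867 and 1108 FPKM in Tgfbr2KO_TGFB1, a 3.51-fold rise (log2 1.82, SE 0.15, adjusted p = 1.09e-05). Rspo3, a secreted R-spondin and booster of WNT signalling, was at 0.597, 1.2 and 1.03 FPKM in TGFB1 and 6.81, 8.57 and 19.3 FPKM in Tgfbr2KO_TGFB1 (log2 2.58, SE 0.40, adjusted p = 0.000662). Replicate 3 was the highest knockout library in these 3 genes, and the lowest knockout library was above every intact one. The EGF receptor ligand gene Ereg rose 6.96-fold, from 18.1, 12.9 and 12.9 to 114, 105 and 87.4 FPKM (log2 2.73, SE 0.22, adjusted p = 1.04e-05). Pdgfra, the platelet-derived growth factor receptor gene whose reporter named the cells, was at 13.8, 19.7 and 12.1 FPKM in TGFB1 and 67.3, 83.2 and 195 FPKM in Tgfbr2KO_TGFB1, a 7.58-fold rise (log2 2.71, SE 0.38, adjusted p = 0.00034; 4.95-fold without knockout replicate 3). Cd34, a sialomucin of stromal progenitors, was at 3.88, 2.39 and 7.41 FPKM in TGFB1 and 38.6, 47.1 and 148 FPKM in Tgfbr2KO_TGFB1 (log2 3.66, SE 0.56, adjusted p = 0.000621). In both Pdgfra and Cd34 knockout replicate 3 was far above the other knockout libraries, which were themselves above every intact one. Members that fell, named after their values were seen, included Wnt9a (log2 -1.52), Wnt5a (-1.03) and Cd81 (-0.40), so WNT ligand and R-spondin genes did not move one way.

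WNT targets and antagonists split, with 6 higher and 6 lower of 16. Frzb, a secreted WNT antagonist gene, rose 28.6-fold from 0.985, 0.624 and 0.951 to 21.7, 20.9 and 30.6 FPKM (log2 3.76, SE 0.18, adjusted p = 4.85e-07), and Nkd2, an intracellular WNT inhibitor gene, rose from 0.556, 0.684 and 0.601 to 13.9, 12.4 and 10.5 FPKM (log2 3.03). Ccn4, a matricellular WNT target gene, fell 4.9-fold from 223, 216 and 219.6 to 39.4, 50.4 and 44.5 FPKM (log2 -2.28, SE 0.14, adjusted p = 2.01e-06). Sfrp2, another secreted antagonist gene, was listed at 0, 0.033 and 0 FPKM in the intact libraries and rose to 2.54, 1.32 and 1.5 FPKM (log2 1.44).

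BMP ligands, receptors and targets were called higher in 10 of 20 cases and lower in 4 (median log2 difference 0.23). The latter count was near the 19.3% called lower of all genes. Bmp4, a ligand gene of the mesenchyme, was at 0.863, 1.34 and 1.53 FPKM in TGFB1 and 27.4, 29.5 and 19.8 FPKM in Tgfbr2KO_TGFB1, a 20.5-fold rise (log2 3.56, SE 0.23, adjusted p = 2.81e-06). The ID genes, which encode inhibitors of helix-loop-helix factors and respond to BMP-SMADs, rose with it. Id1 was at 17.7, 16.3 and 20.3 FPKM in TGFB1 and 86.4, 71.9 and 85 FPKM in Tgfbr2KO_TGFB1 (log2 2.11, SE 0.12, adjusted p = 9.82e-07), Id2 at 6.01, 2.65 and 6.42 FPKM in TGFB1 and 40.7, 45 and 56.6 FPKM in Tgfbr2KO_TGFB1 (log2 3.06, SE 0.23, adjusted p = 5.94e-06), and Id3 had a log2 difference of 1.47. Atoh8, a BMP target gene, was at 5.39, 8.11 and 5.71 FPKM in TGFB1 and 22.1, 21.2 and 23.6 FPKM in Tgfbr2KO_TGFB1 (log2 1.67). In Bmp4, Id1, Id2 and Atoh8 no intact library reached the lowest knockout library. Members that fell were Bmp1, a protease gene that processes collagen (log2 -1.32), Nbl1, an antagonist gene (-1.19), and the receptor genes Acvr1 (-0.83) and Bmpr2 (-0.47), named after their values were seen.

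Of 10 Notch genes 5 fell and 4 rose. Jag1, a Notch ligand gene, was at 101, 92.8 and 90.1 FPKM in TGFB1 and 6.87, 9.55 and 3.86 FPKM in Tgfbr2KO_TGFB1, a 14-fold fall (log2 -3.69, SE 0.24, adjusted p = 2.53e-06). Its 3 intact libraries were close to each other, and all were far above the highest knockout library. Dll1, another ligand gene, was low and rose from 0.285, 0.287 and 0.372 to 2.64, 1.82 and 1.86 FPKM (log2 1.23). The fringe gene Lfng fell from 4.51, 3.21 and 4.89 to 2.06, 2.16 and 1.73 FPKM (log2 -0.79). These counts were less firm than the size of the Jag1 fall, with 2 higher without intact replicate 1 or 2, and 3 lower without intact replicate 2 or knockout replicate 1.

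Inflammatory and acute phase genes were higher in the knockout libraries in 22 of 30 tested cases and lower in 1, Tnfaip3 (log2 -0.96), with a median log2 difference of 1.79. Leukocyte markers were read beside them: of 13 tested, 2 were called higher, S100a8 and Cd14, and 11 were not called, and the pan-leukocyte gene Ptprc was at 1.19, 0.0686 and 1.61 FPKM in the intact and 0.216, 0.69 and 0.579 FPKM in the knockout libraries. Standard errors were wide for some of the 11, such as Lyz2 (log2 0.88, SE 1.35) and C1qa (log2 -0.43, SE 1.25). Their lack of a call does not show equal leukocyte content. Mrc1 was not called (log2 1.12, limma adjusted p = 0.147), but its groups did not overlap. It was at 0.179, 0.0113 and 0.329 FPKM in TGFB1 and 1.01, 2.17 and 1.57 FPKM in Tgfbr2KO_TGFB1. Saa3, an acute phase apolipoprotein gene, was at 11.9, 6.15 and 8.82 FPKM in TGFB1 and 1659, 2614 and 7319 FPKM in Tgfbr2KO_TGFB1, a 432-fold rise with the largest log2 difference of the called genes named, on the log2(FPKM + 1) scale (log2 8.36, SE 0.56, adjusted p = 3.13e-06). Knockout replicate 3 was the highest, and over 16 alternative settings the log2 difference ran from 7.75 to 8.82. Without that library the ratio of means was 239. Lcn2, an iron-sequestering lipocalin gene, was at 0.457, 0.0995 and 0.0919 FPKM in TGFB1 and 267, 268 and 369 FPKM in Tgfbr2KO_TGFB1 (log2 7.95, SE 0.23, adjusted p = 1.13e-08), and its ratio of means rests on intact values below 0.5 FPKM. With a pseudocount of 0.1 its log2 difference was 10.1, above that of Saa3 under any alternative. Cxcl5, a neutrophil chemokine gene, was at 12.7, 15.3 and 13.8 FPKM in TGFB1 and 872, 936 and 1174 FPKM in Tgfbr2KO_TGFB1, a 71.4-fold rise (log2 6.05, SE 0.14, adjusted p = 3.18e-09). Within each genotype Cxcl5 was even across libraries, and its standard error was among the smallest of these genes. Il6, the cytokine gene, was at 9.42, 14.3 and 18.2 FPKM in TGFB1 and 117, 149.99 and 136 FPKM in Tgfbr2KO_TGFB1, a 9.59-fold rise (log2 3.21, SE 0.20, adjusted p = 2.05e-06). Ptx3, a pentraxin gene, was at 0.547, 0.311 and 0.324 FPKM in TGFB1 and 85.6, 76 and 51 FPKM in Tgfbr2KO_TGFB1 (log2 5.66, SE 0.28, adjusted p = 5.57e-07). The monocyte chemokine gene Ccl2 was abundant in both genotypes, at 333, 363 and 389 FPKM in TGFB1 and 907, 943 and 842 FPKM in Tgfbr2KO_TGFB1 (log2 1.31, SE 0.19, adjusted p = 0.00053). Further members that rose, named after their values were seen, were the chemokine genes Cxcl1 (log2 3.76) and Ccl11 (3.49), the haptoglobin gene Hp (3.46), the alarmin gene Il33 (3.06) and the adhesion genes Vcam1 (2.91) and Icam1 (1.73).

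S100a8, a calprotectin subunit gene best known from neutrophils, was at 0, 0.967 and 0 FPKM in TGFB1 and 188, 125 and 10.3 FPKM in Tgfbr2KO_TGFB1. Knockout replicate 3 was far lower than the other knockout libraries, yet above every intact one (log2 5.69, SE 1.06, adjusted p = 0.00212; log2 4.91 without knockout replicate 1). S100a9, the other calprotectin subunit gene, was listed at 0 in 5 of these 6 libraries and at 0.2 FPKM in knockout replicate 1. Slpi, a secreted protease inhibitor gene, rose from below 0.6 FPKM in every intact library to 140.2, 80.7 and 42.5 FPKM (log2 5.92, SE 0.48, adjusted p = 1.05e-05). The prolactin family genes Prl2c2 and Prl2c3 rose by 4.71 and 4.81 on the log2 scale, but they are near-identical copies whose reads cannot be assigned with certainty. U90926 rose from 2.12, 7.56 and 8.92 to 167, 284 and 112 FPKM (log2 4.77).

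Complement genes rose in 8 of 13 cases and fell in 1 (median log2 difference 1.4; the fall was not called without intact replicate 1 or 3 or knockout replicate 2, nor with upper-quartile scaling). C3, the central component, was at 4.34, 7.27 and 5.87 FPKM in TGFB1 and 41.5, 46.2 and 90.7 FPKM in Tgfbr2KO_TGFB1 (log2 3.08, SE 0.29, adjusted p = 2.95e-05). Serping1, the C1 inhibitor gene, was at 5.71, 10.4 and 9.13 FPKM in TGFB1 and 41.1, 56.2 and 143 FPKM in Tgfbr2KO_TGFB1 (log2 2.93, SE 0.43, adjusted p = 0.00046), and C4b rose from near 0 (0.0206, 0.11 and 0.052 FPKM) to 2.44, 3.91 and 15.7 FPKM (log2 2.63). Replicate 3 was the highest knockout library in all 3 genes. Prostaglandin genes rose in 6 of 9 cases and fell in none (1 fell without knockout replicate 3). Ptgs1, a cyclooxygenase gene, was at 76.7, 73.4 and 62 FPKM in TGFB1 and 265, 219.5 and 214 FPKM in Tgfbr2KO_TGFB1 (log2 1.7, SE 0.14, adjusted p = 1.1e-05), and Ptges, the prostaglandin E synthase gene, was at 6.56, 10.2 and 9.14 FPKM in TGFB1 and 68.7, 59 and 36.2 FPKM in Tgfbr2KO_TGFB1 (log2 2.5, SE 0.27, adjusted p = 5.99e-05). The receptor genes Ptger2 and Ptger4 were low and rose by log2 differences of 1.06 and 1.1.

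Interferon response genes were called higher in 8 of 21 cases and lower in none (median 1.21), a count that rested on single libraries. It was 4, 3 and 5 without intact replicates 1, 2 and 3, and 16, 3 and 4 without knockout replicates 1, 2 and 3. Usp18, a brake on interferon signalling, was at 0.812, 0.797 and 1.14 FPKM in TGFB1 and 4.99, 11.5 and 18.2 FPKM in Tgfbr2KO_TGFB1 (log2 2.56, SE 0.37, adjusted p = 0.000451). Isg15, a ubiquitin-like protein gene, was at 5.05, 5.39 and 7.39 FPKM in TGFB1 and 5.34, 40.9 and 86.4 FPKM in Tgfbr2KO_TGFB1, with knockout replicate 1 inside the intact range and replicate 3 at 16.2 times replicate 1, and it was not called (log2 2.05, adjusted p = 0.0756). Of 11 MHC class I and antigen processing genes 2 rose, H2-Q4 (log2 1.35) and the peptide transporter gene Tap1 (0.90), and 1 fell, the tapasin gene Tapbp (-0.63). These counts were near or below the shares of all genes (15.9% higher and 19.3% lower). Without knockout replicate 1 there were 5 that rose.

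**Figure D3:**
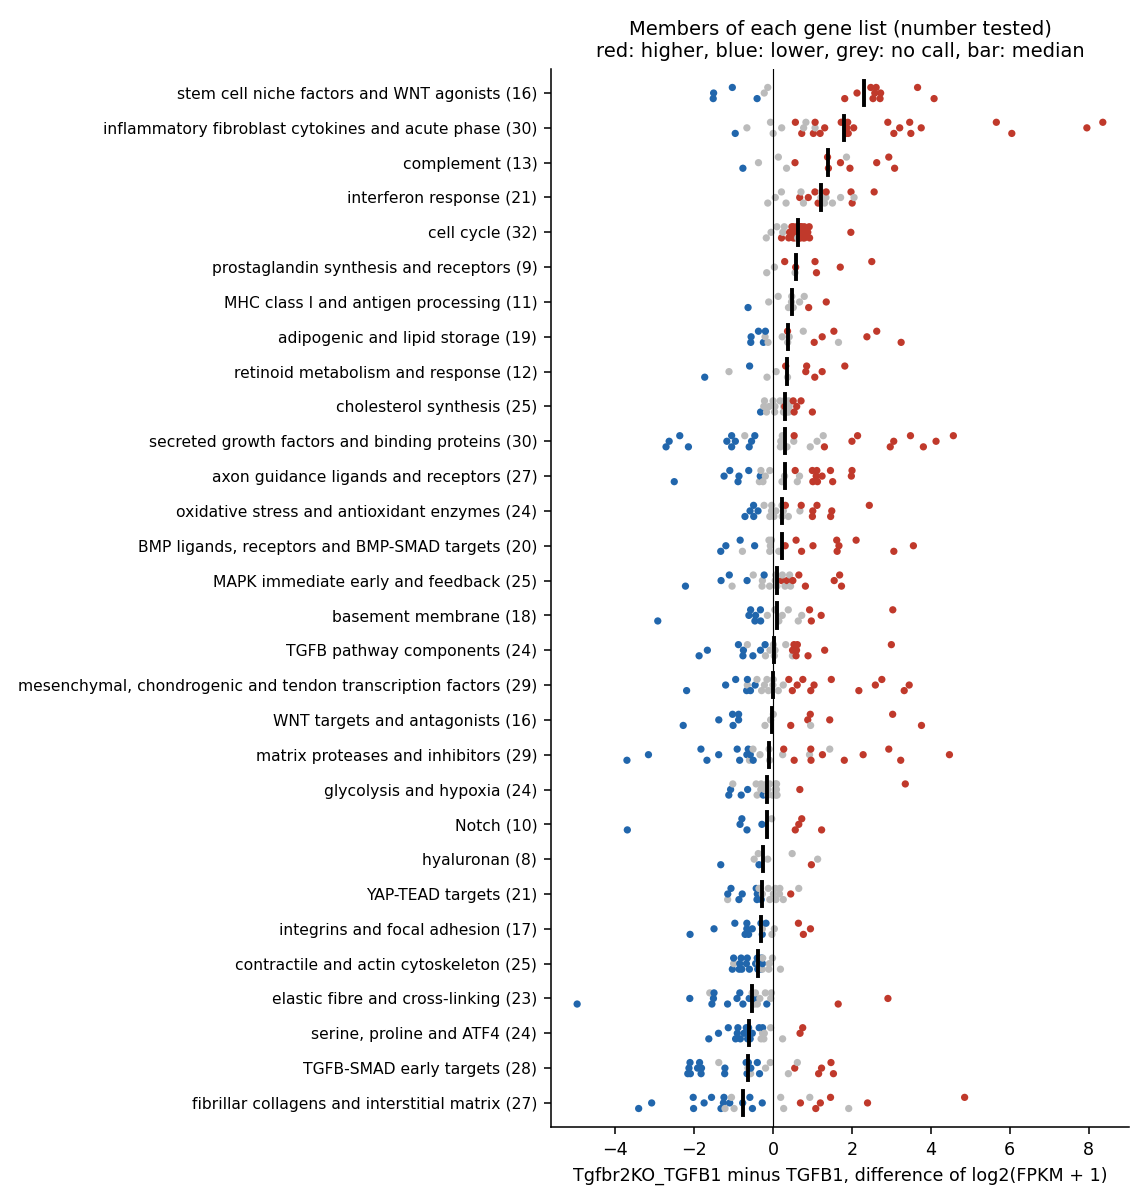
Each row is 1 of 30 gene lists, with the number of members tested in parentheses, and each point is a member's log2(FPKM + 1) in Tgfbr2KO_TGFB1 minus TGFB1 (x axis); red was called higher, blue lower, grey not called, and the bar is the median. Rows run from the highest median, niche factors and WNT agonists (2.30), to the lowest, fibrillar collagens and interstitial matrix (-0.77), against -0.02 for all genes.

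Secreted growth factors and their binding proteins moved in both directions, with 10 higher and 11 lower of 30. Igfbp5 and Igfbp4, genes of insulin-like growth factor binding proteins, rose 63.3-fold and 16.5-fold. Igfbp4 was at 23.2, 31.1 and 29.5 FPKM in TGFB1 and 238, 338 and 808 FPKM in Tgfbr2KO_TGFB1, with replicate 3 the highest knockout library (log2 3.81; 10.3-fold without it). Vegfd, a lymphatic growth factor gene, rose from 0.572, 0.62 and 0.323 to 9.38, 10.3 and 39 FPKM (log2 3.48). Ptn, the pleiotrophin gene, was at 1.82, 5.26 and 2.97 FPKM in TGFB1 and 16.1, 49.4 and 437 FPKM in Tgfbr2KO_TGFB1. Its knockout libraries spanned 27.2-fold, and its call (log2 4.13, SE 1.18, adjusted p = 0.0203) was lost without knockout replicate 3 (log2 2.83, adjusted p = 0.0531; log2 5.17 without knockout replicate 1) or without intact replicate 1 or 3 (adjusted p = 0.0652 and 0.0545). Other members that rose, named after their values were seen, were Kitl, the KIT ligand gene (log2 3.06), and Hgf, the hepatocyte growth factor gene (2.97). Members that fell included Fgf21 (-2.71), the EGF receptor ligand gene Hbegf (-2.63) and the platelet-derived growth factor genes Pdgfc (-2.36) and Pdgfa (-2.14), named in the same way. All 4 PDGF ligand genes tested fell, while the receptor gene Pdgfra rose and Pdgfrb was not called (log2 0.03).

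Proteases of the matrix and their inhibitors split into 10 higher and 11 lower of 29. Mmp9, a gelatinase gene, was at 185, 345 and 250.4 FPKM in TGFB1 and 10.3, 19.6 and 30.6 FPKM in Tgfbr2KO_TGFB1, a 12.9-fold fall (log2 -3.7, SE 0.52, adjusted p = 0.000377). Tfpi2, a protease inhibitor gene of the matrix, was at 32.1, 31.8 and 30.4 FPKM in TGFB1 and 2.73, 3.61 and 1.79 FPKM in Tgfbr2KO_TGFB1 (log2 -3.16, SE 0.20, adjusted p = 2e-06). Mmp3, the stromelysin gene, rose from 0.0348, 0.112 and 0.315 to 35.9, 34.3 and 11.6 FPKM (log2 4.47, SE 0.48, adjusted p = 6.61e-05), and Adamts9, a proteoglycan-cleaving protease gene, from 0.827, 1.08 and 1.16 to 19.4, 20.1 and 14.9 FPKM (log2 3.24, SE 0.18, adjusted p = 1.18e-06). Thus a gelatinase and a stromelysin gene moved apart. Neither pair of groups overlapped, which the rule for naming the largest rises and falls required. Among other genes with the deepest falls, Cthrc1, a secreted protein gene of activated fibroblasts, was at 82.9, 125 and 96 FPKM in TGFB1 and 4.63, 7.75 and 9.34 FPKM in Tgfbr2KO_TGFB1 (log2 -3.66, SE 0.31, adjusted p = 1.42e-05). Pappa, a protease gene that cleaves IGFBP4, was at 43.3, 42.8 and 47.6 FPKM in TGFB1 and 2.14, 4.21 and 6.03 FPKM in Tgfbr2KO_TGFB1 (log2 -3.23). Odaph fell 22.5-fold from 143, 71.1 and 37.3 to 3.25, 7.59 and 0.312 FPKM, with wide spread in both groups (log2 -4.34, SE 0.74). The fall was 14.6-fold without intact replicate 1 and 47.0-fold without knockout replicate 2. Sorcs2, Olfm2 and Ctsw fell by 3.35, 2.93 and 2.98 on the log2 scale. Lgi2 was among the largest rises, at 0.274, 0.519 and 0.392 FPKM in TGFB1 and 14.5, 32 and 51.3 FPKM in Tgfbr2KO_TGFB1 (log2 4.43).

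Mesenchymal transcription factor genes rose in 12 and fell in 7 of 29 cases (median 0.01). Twist2 was at 1.5, 2.05 and 4.23 FPKM in TGFB1 and 38.9, 45.6 and 27.1 FPKM in Tgfbr2KO_TGFB1 (log2 3.45, SE 0.31, adjusted p = 2.05e-05), and Tcf21, a regulator of stromal progenitors, rose from 0.162, 0.292 and 0.109 to 10.6, 8.57 and 14.1 FPKM (log2 3.32, SE 0.23, adjusted p = 3.3e-06). Prrx1, a limb and fibroblast homeobox gene, was at 2.71, 5.11 and 3.48 FPKM in TGFB1 and 26.1, 28.7 and 26.7 FPKM in Tgfbr2KO_TGFB1 (log2 2.59, SE 0.19, adjusted p = 5.57e-06), and the immediate early nuclear receptor gene Nr4a1 was at 4.87, 7.89 and 7.08 FPKM in TGFB1 and 38.1, 53.7 and 59.9 FPKM in Tgfbr2KO_TGFB1 (log2 2.76). No intact library reached the lowest knockout library in these 4 genes. Members that fell, named after their values were seen, included Scx, a tendon factor gene (log2 -2.19), Runx1 (-1.2) and Sox9 (-0.67). Axon guidance genes rose in 11 and fell in 7 of 27 cases. Sema7a, a membrane-anchored semaphorin gene, fell 7.76-fold from 15.9, 14.1 and 16 to 2.21, 2.72 and 0.993 FPKM (log2 -2.5, SE 0.23, adjusted p = 2.29e-05). Slit3 rose from 13.2, 23.8 and 23.4 to 46.5, 71.8 and 154 FPKM (log2 1.99, adjusted p = 0.00919), and Sema3e from 4.8, 4.45 and 4.11 to 38.1, 26.4 and 8.69 FPKM (log2 2.0, adjusted p = 0.00985).

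Cell cycle genes rose in 26 of 32 tested cases and fell in none, by small steps (median log2 difference 0.64). The count was 17, 16 and 16 without intact replicate 1, intact replicate 3 and knockout replicate 2. Ccnd1, cyclin D1, moved most, at 18.8, 16.9 and 19 FPKM in TGFB1 and 101, 68.2 and 59.8 FPKM in Tgfbr2KO_TGFB1 (log2 1.97, SE 0.23, adjusted p = 9.33e-05). The mitotic genes Ccnb1, cyclin B1, at 15.2, 18.8 and 17 FPKM in TGFB1 and 30.6, 36.2 and 32.7 FPKM in Tgfbr2KO_TGFB1, and Cdk1, its kinase partner, at 7.87, 10.7 and 8.27 FPKM in TGFB1 and 16.5, 20.02 and 16.6 FPKM in Tgfbr2KO_TGFB1, rose 1.95-fold and 1.98-fold (log2 0.93 and 0.92). Birc5, survivin, rose 1.87-fold (log2 0.88, adjusted p = 0.00572). Among genes of growth factor signalling through MAPK, 8 of 25 rose and 5 fell, the latter near the 19.3% called lower of all genes. The first count was 4, 4 and 5 without intact replicate 1, intact replicate 2 and knockout replicate 2. Egr2 fell from 21.5, 20.8 and 24.5 to 3.63, 5.07 and 3.41 FPKM (log2 -2.22, SE 0.23, adjusted p = 5.13e-05), while Fos rose from 3.71, 3.42 and 4.72 to 12.6, 12.7 and 22.5 FPKM (log2 1.74) and the feedback inhibitor gene Spry2 from 20.5, 24.2 and 21.9 to 77.2, 74.1 and 69.7 FPKM (log2 1.69, SE 0.09, adjusted p = 9.47e-07).

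Genes of serine and proline synthesis and of the ATF4 stress response fell in 16 of 24 cases and rose in 2 (median -0.60). Slc7a5, an amino acid transporter gene, was at 79.8, 83.7 and 83 FPKM in TGFB1 and 40.4, 39.7 and 46.5 FPKM in Tgfbr2KO_TGFB1 (log2 -0.95, SE 0.10, adjusted p = 4.4e-05). Slc7a3, a cationic amino acid transporter gene, was at 5.95, 6.6 and 7.06 FPKM in TGFB1 and 1.17, 1.75 and 1.43 FPKM in Tgfbr2KO_TGFB1 (log2 -1.63), and Trib3 and Chac1, targets of ATF4, fell 2.65-fold and 2.3-fold. Phgdh, the first enzyme of serine synthesis, fell by 0.62 on the log2 scale and Pycr1, of proline synthesis, by 0.91, both named after their values were seen. Of 24 glycolysis and hypoxia genes 5 fell and 2 rose, near or below the shares of all genes (19.3% lower and 15.9% higher). Vegfa, the vascular growth factor gene, was at 254, 246 and 241 FPKM in TGFB1 and 108, 119 and 125 FPKM in Tgfbr2KO_TGFB1 (log2 -1.07, SE 0.12, adjusted p = 8.45e-05), whereas Adm, adrenomedullin, was at 9.15, 9.91 and 11.7 FPKM in TGFB1 and 147, 139 and 71 FPKM in Tgfbr2KO_TGFB1, an 11.6-fold rise (log2 3.35, SE 0.32, adjusted p = 3.36e-05). Cholesterol synthesis genes rose in 7 of 25 cases and fell in 1 (3 rose without intact replicate 1, and 2 fell without knockout replicate 3), with Sc5d the largest at 21.1, 21.3 and 21.6 FPKM in TGFB1 and 48.5, 44.9 and 37.9 FPKM in Tgfbr2KO_TGFB1 (log2 1.0, SE 0.10, adjusted p = 3.57e-05).

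Adipogenic and lipid genes rose in 7 and fell in 5 of 19 cases (3 fell without intact replicate 2). Fabp4, a fatty acid binding protein gene, was at 0.376, 0.96 and 2.39 FPKM in TGFB1 and 14.3, 16.2 and 28.6 FPKM in Tgfbr2KO_TGFB1 (log2 3.25, SE 0.41, adjusted p = 0.000194), and Lpl, lipoprotein lipase, at 1.16, 0.708 and 0.993 FPKM in TGFB1 and 7.36, 9.21 and 19.3 FPKM in Tgfbr2KO_TGFB1 (log2 2.63, SE 0.34, adjusted p = 0.000198). Cebpd, a CCAAT-binding factor gene of early adipogenesis and inflammation, was at 18.8, 23.8 and 32.2 FPKM in TGFB1 and 115, 112 and 174 FPKM in Tgfbr2KO_TGFB1 (log2 2.38, SE 0.21, adjusted p = 1.6e-05). Intact and knockout libraries did not overlap in these genes. Antioxidant genes rose in 8 and fell in 5 of 24 cases, the latter near the 19.3% called lower of all genes. Without knockout replicate 3, 13 rose, and 2 or 3 fell without intact replicates 1, 2 or 3 or knockout replicate 2. Sod3, the extracellular superoxide dismutase gene, was at 12.1, 14.4 and 15.4 FPKM in TGFB1 and 58.3, 78.6 and 111 FPKM in Tgfbr2KO_TGFB1 (log2 2.44, SE 0.27, adjusted p = 6.88e-05), and the NRF2 target gene Nqo1 was at 13.2, 11.8 and 9.49 FPKM in TGFB1 and 46.1, 41.5 and 18.8 FPKM in Tgfbr2KO_TGFB1 (log2 1.46, SE 0.35, adjusted p = 0.00823). Retinoid genes rose in 6 of 12 cases and fell in 2 (3 rose without intact replicate 1, intact replicate 3 or knockout replicate 3). The count of falls was near the 19.3% called lower of all genes. Aldh1a3 and Aldh1a2 both encode enzymes that make retinoic acid and moved apart: Aldh1a3 fell from 37.2, 27.9 and 23.8 to 8.0, 9.13 and 7.21 FPKM (log2 -1.73, SE 0.21, adjusted p = 0.000131), and Aldh1a2 rose from 0.614, 0.458 and 0.376 to 2.6, 1.52 and 2.22 FPKM (log2 1.06).

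Among the most abundant called genes, Tmsb4x, the gene of the actin-binding peptide thymosin beta 4, was at 6585, 6598 and 7421 FPKM in TGFB1 and 2750.5, 2931 and 2487 FPKM in Tgfbr2KO_TGFB1, a 2.52-fold fall with even groups (log2 -1.34, SE 0.08, adjusted p = 1.96e-06). Fth1, the ferritin heavy chain gene, was at 888, 619 and 843 FPKM in TGFB1 and 2437, 2189.97 and 2058 FPKM in Tgfbr2KO_TGFB1, a 2.85-fold rise (log2 1.52, SE 0.14, adjusted p = 2.81e-05). Lgals1, Tmsb10 and Ubb moved by much less, with log2 differences of -0.28, -0.30 and 0.22.

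The same genotype difference was then read without added ligand, in the 6 vehicle libraries. Their levels do not enter the differences above, but their spread enters the variance estimate that all comparisons share (3343 genes were called with TGFB1 when only the 6 libraries given the ligand were fitted). Tgfbr2KO_Vehicle minus Vehicle called 165 of the same 12088 genes (1.36%), 67 higher (0.554%) and 98 lower (0.811%). The count depended on the settings. It was 0 with only the 6 vehicle libraries in the fit (2644 genes at an unadjusted limma p under 0.05). It was from 0 to 761 when 1 library of the 12 was left out. With a term for the replicate number in the fit (the replicate block) it was 1883, 876 higher and 1007 lower. Of the 165 genes, 133 were also called with TGFB1, which is 80.6% of the vehicle list and 3.13% of the list with TGFB1. In the same direction were 124, 50 higher and 74 lower, and in the opposite direction 9. The test of the difference between the 2 genotype differences, the interaction, called 2251 genes (18.6%), 1057 with a more positive (8.74%) and 1194 with a more negative (9.88%) difference with TGFB1.

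None of the 16 niche and WNT agonist genes was called with vehicle (median log2 difference -0.02 there), and the interaction called 9 more positive and 2 more negative with TGFB1. With 1.36% of all genes called with vehicle, a list without a call does not show that the genotypes were alike. Ereg, a member, did not overlap with vehicle, at 49.6, 40.3 and 35.2 FPKM in Vehicle and 105, 86.9 and 57.2 FPKM in Tgfbr2KO_Vehicle. Its log2 difference was 0.95 (limma adjusted p = 0.0626, and 0.0081 with the replicate block). Of the 28 early targets 1 was called higher and 1 lower with vehicle, and the interaction called 5 more positive and 12 more negative. Of the 30 inflammatory genes 2 were called higher with vehicle, and the interaction called 15 more positive and 1 more negative. None of the 25 contractile genes was called with vehicle, and the interaction called 8 of them, all more negative. Pdlim7 did not overlap with vehicle, at 191.5, 194.5 and 190.6 FPKM in Vehicle and 167.5, 166.8 and 152.7 FPKM in Tgfbr2KO_Vehicle. Its log2 difference was -0.24 (limma adjusted p = 0.113, and 0.0309 with the replicate block). Of the 32 cell cycle genes 1 was called higher with vehicle, with 11 interactions more positive and 1 more negative. Fgf10 was at 42.2, 38 and 48.5 FPKM in Vehicle and 40.3, 41.1 and 35.6 FPKM in Tgfbr2KO_Vehicle, so these groups overlapped, and its interaction was log2 4.21 (adjusted p = 2e-06). Jag1 was at 9.19, 11.2 and 7.03 FPKM in Vehicle and 6.6, 7.73 and 7.4 FPKM in Tgfbr2KO_Vehicle, again with overlap (interaction log2 -3.41, limma adjusted p = 0.00016). For Fgf10, Grem1, Bmp4, Id1, Pdgfra, Tgfbr3, Saa3, Cxcl5 and Il6, every library of both vehicle groups was above every TGFB1 library. Mean Pdgfra was 142 FPKM in Vehicle and 115 FPKM in Tgfbr2KO_TGFB1. Matrix genes had a median log2 difference of -0.78 with vehicle, beside -0.77 with TGFB1, 1 of the 27 was called with vehicle, lower, and the interaction called 7 more positive and 5 more negative. Col1a1 was at 2546, 2165 and 3881 FPKM in Vehicle and 845, 1395 and 1329 FPKM in Tgfbr2KO_Vehicle, with no overlap. Its log2 difference of -1.26 was near the -1.32 seen with TGFB1. It was not called (limma adjusted p = 0.0648), but was called with the replicate block (0.0114). The interaction was -0.06 (limma adjusted p = 0.939).

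Genes called in the same direction with and without ligand included Lcn2, Slpi, Mmp3, Prl2c2, Prl2c3 and Plpp3 among the largest. Plpp3, a lipid phosphatase gene, was at 50.1, 57.2 and 53.9 FPKM in Vehicle and 77.7, 81 and 74.7 FPKM in Tgfbr2KO_Vehicle (log2 0.53, adjusted p = 0.0294). With TGFB1 it was at 4.99, 5.81 and 5.45 FPKM in TGFB1 and 79.98, 80.2 and 97.4 FPKM in Tgfbr2KO_TGFB1 (log2 3.75). The knockout libraries were thus similar with and without ligand and above both intact groups. Csrp2 and Ccn4 fell in both, by 1.22 and 1.02 on the log2 scale with vehicle. Among genes called in opposite directions was Pmaip1, the gene of the apoptosis factor NOXA. It was higher in Tgfbr2KO_Vehicle (27.6, 23 and 25.5 FPKM) than in Vehicle (13.4, 14.9 and 11.3 FPKM), and lower in Tgfbr2KO_TGFB1 (24.8, 25 and 14.3 FPKM) than in TGFB1 (68.6, 61.1 and 65.6 FPKM). Plin2, a lipid droplet coat gene, moved in the same way, with log2 differences of 0.71 with vehicle and -0.56 with TGFB1 (-0.37 without knockout replicate 3).

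**Figure D4:**
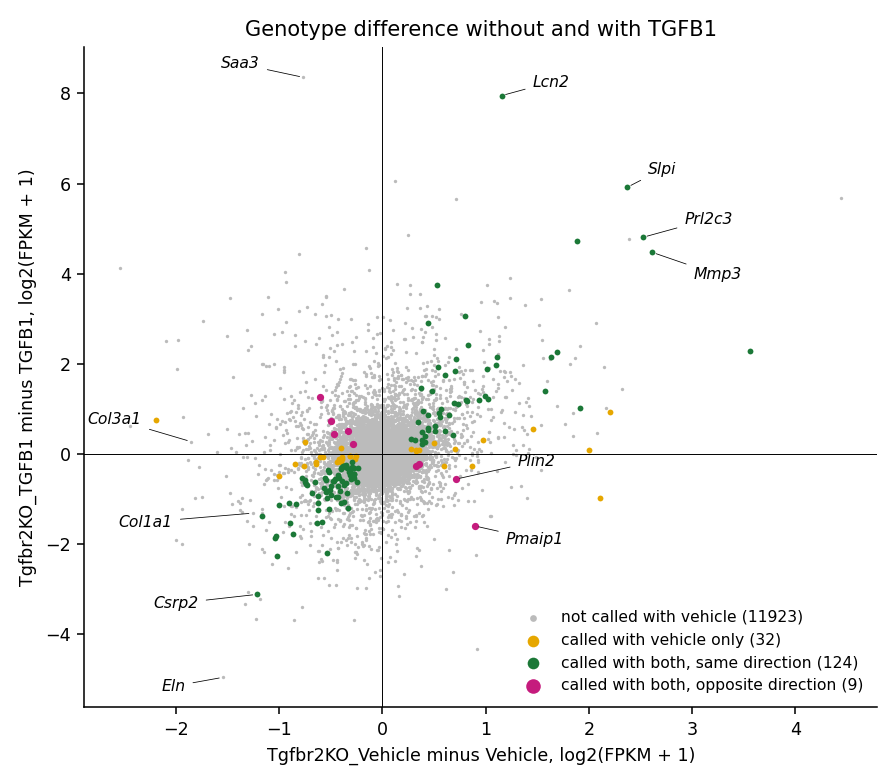
Each point is 1 of 12088 genes, with the knockout minus intact log2(FPKM + 1) difference under vehicle on the x axis and under TGFB1 on the y axis; the x and y values come from separate libraries. Green points (124) were called in both in the same direction, pink (9) in opposite directions, orange (32) with vehicle only; Saa3 and Eln lie far from 0 on the y axis and were not called with vehicle.

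With TGFB1, the knockout libraries differed among themselves more than the intact ones, and with vehicle less. Over 8737 genes with a mean of at least 5 FPKM the median SD of log2(FPKM + 1) was 0.131 in the knockout and 0.0828 in the intact libraries, and it exceeded 0.5 for 463 against 168 genes. In Tgfbr2KO_Vehicle and Vehicle the medians were 0.0897 and 0.11, with 250 and 300 genes above 0.5. The genes described next were chosen after their values were seen. Tgfbi, the gene of a TGF-beta induced matrix protein, was at 10.6, 16.4 and 19.97 FPKM in TGFB1 and 7.48, 16.9 and 99.9 FPKM in Tgfbr2KO_TGFB1: replicate 3 was 13.4 times replicate 1 in the knockout libraries, and the difference was not called (log2 0.62, adjusted p = 0.647). In Vehicle it was at 41.7, 52.9 and 156 FPKM and in Tgfbr2KO_Vehicle at 3.53, 14.9 and 30.2 FPKM. Replicate 3 was also the highest in both vehicle groups for Tgfbi, Ptn (94.7, 185 and 478 FPKM in Vehicle) and Col3a1 (635, 609.6 and 1738 FPKM), and the lowest for Ccn2 (803, 739 and 455 FPKM). Cck, the cholecystokinin gene, was at 195, 164 and 47.2 FPKM in TGFB1 and 979, 566 and 79 FPKM in Tgfbr2KO_TGFB1. Replicate 3 was the lowest in both genotypes, also with vehicle, where Cck was at 453, 482 and 56.9 FPKM in Vehicle and 1419, 682 and 362 FPKM in Tgfbr2KO_Vehicle. It was not called with TGFB1 (adjusted p = 0.28).

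**Figure D5:**
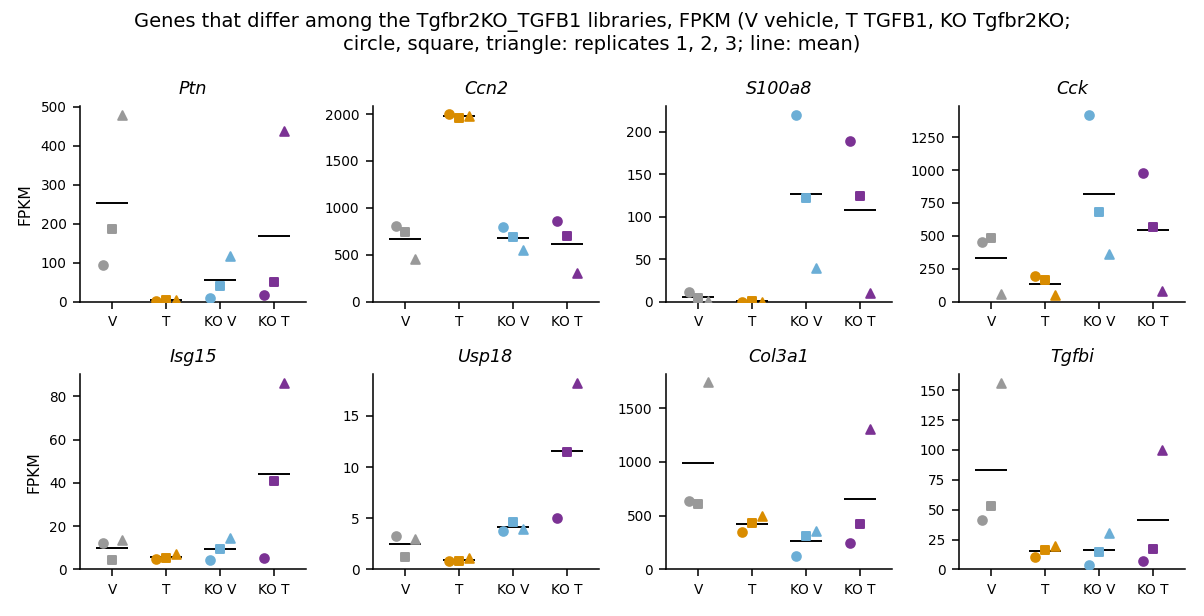
FPKM (y axes, each from 0) of 8 genes chosen after their values were seen, in all 12 libraries, with groups, symbols and mean lines as in the plot of 18 genes. Replicate 3 (triangle) is the highest KO T library for Ptn, Isg15, Usp18, Col3a1 and Tgfbi and the lowest for Ccn2, S100a8 and Cck.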

How the data were processed

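Libraries were grouped by the labels into Vehicle, TGFB1, Tgfbr2KO_Vehicle and Tgfbr2KO_TGFB1, with 3 each. Per the labels' protocols, RNA came from a spin-column kit, and a sequencing company prepared poly-T selected mRNA libraries. The values are FPKM, 1 per gene symbol and library, in a single table that the authors deposited. Per the submitters' processing notes kallisto 0.46.1, DESeq2 1.40.1 and the build mm9 were used. The steps from these to FPKM, and any scaling between libraries, are not given in the sources used here. Read counts were not used, so tests were run on log2(FPKM + 1), which makes differences of genes with low FPKM look smaller than they are.

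Group means were fitted to all 12 libraries with limma 3.58.1 in R 4.3.3 (variance trend, empirical Bayes, 8 residual degrees of freedom), and p-values were adjusted over the 12088 genes with the Benjamini-Hochberg procedure, calling a gene at 0.05 or less. The median standard error of a difference was 0.105, giving a 95% interval of 0.234 on each side. Tables and plots were made with Python 3.11.15, numpy 2.4.6, pandas 2.3.3 and matplotlib 3.10.9, and the fit was tested on simulated data. No coordinates of the authors' build are given; promoters are RefSeq's, of GRCm38.p6, matched by symbol for 9506 of the 12088 genes.

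The genes compared, the 30 pathway lists and the markers were chosen with earlier results of these data known. Genes named include the called genes with the 15 largest rises and the 15 largest falls whose groups did not overlap and whose mean reached 5 FPKM in either group. Also named are up to 4 called members of each list, 6 genes called in the same and 6 in opposite directions with vehicle, and the 6 most abundant called genes in each direction. Genes named whatever their values were Tgfbr2, Tgfbr1, Tgfbr3, Tgfb1, Smad7, Ccn2, Acta2, Col1a1, Col3a1, Eln, Fn1, Grem1, Rspo3, Bmp4, Pdgfra, Il6 and Saa3; some genes that met these rules are not reported here. The alternatives tried were a replicate block, only the libraries of the comparison in the fit, pseudocounts of 0.1 and 0.5, no filter, a filter of a mean of at least 5 FPKM, the filter over all 12 libraries, upper-quartile and median-of-ratios scaling, no variance trend, and each library left out.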

Additional observations from a re-analysis of the deposited data

Results flagged for a closer look

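For 17 genes named whatever their values, or named because the genotype differences with and without TGFB1 were called in opposite directions, the 2 genotype differences differed by limma's test of the interaction (the difference with TGFB1 minus that with vehicle). Among signals and receptors the interaction was log2 1.72 for Grem1 (adjusted p = 0.000528), 3.19 for Rspo3 (0.00399 as adjusted p), 3.19 for Bmp4 (0.000203), 3.69 for Pdgfra (0.00138), 3.31 for Tgfbr3 (0.00147) and -0.91 for Tgfb1 (0.000727). For the inflammatory genes Saa3 and Il6 it was 9.12 and 2.66 (adjusted p = 9.09e-05 and 0.000246). The matrix genes Eln and Fn1 and the matricellular gene Ccn2 had interactions of -3.42, -1.32 and -1.87 (adjusted p = 0.0255, 0.00702 and 0.0247), whereas those of Col1a1 (-0.06) and Col3a1 (2.12) were not called (adjusted p = 0.939 and 0.122).

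Of the genes called in opposite directions, Pmaip1, Plin2 and Tgoln1 were higher in knockout than intact libraries with vehicle and lower with TGFB1. Their interactions were -2.50, -1.27 and -0.59 (adjusted p = 0.000206, 0.00243 and 0.00263). Gm13889, Map4k3 and Ptprf went the other way, with 1.22, 0.83 and 0.90 (adjusted p = 0.000124, 0.000253 and 0.0016). These 6 genes were picked because their 2 genotype differences were called in opposite directions. The interaction is the one difference minus the other, so its call in these genes is no separate result. Ptprf, a receptor tyrosine phosphatase gene, was at 19.3, 18.3 and 21.1 FPKM in Vehicle, 14.6, 14.2 and 12.6 FPKM in Tgfbr2KO_Vehicle, 11.6, 10.7 and 11.6 FPKM in TGFB1 and 15.5, 13.6 and 17.7 FPKM in Tgfbr2KO_TGFB1. Among the other named genes 102 of 137 had an interaction adjusted p below 0.05, beside 18.6% of all genes tested. Many of them were named for a large difference with TGFB1, which is part of the interaction. A high share was thus built in by the naming rules.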

How the results depend on the processing

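With TGFB1, from 3266 to 5359 genes were called under the alternatives, against 4256. With a mean of at least 5 FPKM required, 1222 genes were called higher and 2044 lower, and leaving out 1 library gave 3399 to 4267 calls. Of 161 named genes 156 were called, 142 of them under all 16 alternatives, and the other 14 lost the call under at least 1. The block added 4 calls among the named genes and took none. Without 1 library the log2 difference of Col3a1, which was not called, ran from -0.41 to 0.81; it changed sign to -0.41 (limma adjusted p = 0.596) without Tgfbr2KO_TGFB1 replicate 3, and the cause was not tested. With upper-quartile scaling 2193 were higher and 1980 lower, and no scaling moved the median of all genes by over 0.1. The vehicle comparison gave 1883 calls with the replicate block (876 higher and 1007 lower; Col1a1, Ereg and Pdlim7 were called in it, at adjusted p = 0.0114, 0.0081 and 0.0309), 0 with only its 6 libraries in the fit (fewer residual degrees of freedom, 4 in place of 8), 71 with no filter, and 0 to 761 without 1 library. The count of 0 came without Vehicle replicate 3 (1607 genes at an unadjusted p under 0.05) and without Tgfbr2KO_Vehicle replicate 1 (1507), and that of 761 without Tgfbr2KO_TGFB1 replicate 3. The interaction gave 3654 calls with the replicate block and 1530 to 2430 without 1 library. Deviations from the group mean of libraries that share a number correlated across genes at 0.368, 0.00699 and 0.292 between TGFB1 and Tgfbr2KO_TGFB1. Between Vehicle and Tgfbr2KO_Vehicle the values were 0.391, -0.107 and 0.435. Not all were above 0.1, the limit set, so the numbers were not taken to pair the libraries, and the main fit has no term for them. Between TGFB1 and Tgfbr2KO_TGFB1, replicates 1 and 3 correlated at -0.298 and -0.356 across numbers, while replicate 2 was near 0 with every library. Tgfbr2KO_TGFB1 replicate 2 correlated best with TGFB1 replicate 3 (0.0231). The rule could not decide whether libraries are paired. A library that lies between the other 2 of its group has deviations near 0, paired or not. On the second principal component replicate 2 lay between replicates 1 and 3 in TGFB1 (8.48, -0.389 and -11.4). The same held in Tgfbr2KO_TGFB1 (27.2, 6.7 and -30.7). Failing this rule does not show that the libraries are unpaired, and genes that follow the number in all 4 groups are given below. The block gave 5359 calls with TGFB1, and Tgfbr2, Tgfbr1 and Smad7 were called in it (adjusted p = 0.0126, 0.0354 and 0.0078). Without read depths, what counting noise limits at low FPKM is not known.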

Other observations

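A few genes followed the replicate number and not the genotype or the ligand, and were chosen after their values were seen. Atp6v0c, a subunit gene of the vacuolar proton pump, was at 311, 129.7 and 3.54 FPKM in replicates 1, 2 and 3 of Vehicle. It was at 349.95, 154 and 1.19 FPKM in Tgfbr2KO_Vehicle, and with the ligand at 367, 159.99 and 5.18 FPKM in intact and 353, 148 and 2.94 FPKM in knockout cultures. Its pseudogene copy Atp6v0c-ps2 ran the other way, at 2.92, 159 and 278 FPKM in Vehicle and 0, 178 and 255 FPKM in Tgfbr2KO_TGFB1. Reads of such copies cannot be assigned with certainty. Rnaset2b was listed at 0 in replicate 3 of all 4 groups and at 18.2 to 43.5 FPKM in the other 8 libraries. Ahcy was at 0.467 to 0.791 FPKM in replicate 3 of all 4 groups and at 21.1 to 52.1 FPKM in the others.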
